A study of Homo sapiens with 6 samples.

Results

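The subject is a set of 10 transcription factor genes that mark or build the uterine lining and its embryonic source, the Müllerian duct: SOX17, FOXA1, FOXA2, FOXO1, PAX8, PAX2, EMX2, GATA2, WT1 and SOX9. They were taken by symbol from the gene-level count table, where all 10 of the 26364 listed genes were found, and 8 of the 10 passed the filter on low counts that left 15611 genes to test. RNA-seq had been done on Ishikawa cells, an established endometrial adenocarcinoma line that responds to estrogen, to examine what loss of the ETS-family transcription factor ETV4 does to expression. There were 6 libraries. The parental Ishikawa line and ETV4 KO clones 1 and 2 each gave 1 library after 0.1% DMSO, the vehicle, and 1 after 10 nM 17β-estradiol (E2). All 6 cultures had been kept in hormone-depleted medium beforehand. The labels give the treatment as 8 h in the protocol and 1 h in the sample characteristics. Each knockout clone is a single cell line, which gives 2 clone libraries per treatment, against 1 parental library each; a difference between the clones and the parental line cannot be told apart from a difference between clonal lines.

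In the embryo, PAX2, PAX8, EMX2 and the Wilms tumour gene WT1 act in the mesoderm that forms the Müllerian ducts, kidney and gonads. In the adult uterus, SOX17 and FOXA2 act in the epithelium and its glands, FOXA1 opens chromatin for steroid receptors, GATA2 works with the progesterone receptor, SOX9 marks epithelium with growth capacity, and FOXO1 acts in decidualization and as a target of insulin and PI3K signalling. PAX8 and SOX17 are used as markers of Müllerian origin in tumour pathology. SOX and forkhead proteins, paired-box proteins and GATA zinc fingers are separate DNA-binding families, so the set is held together by tissue and not by sequence.

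The libraries held 28037392 to 36829479 counts and 17755 to 18658 detected genes. ETV4 separated the clones from the parental line as labelled: it stood at 19.7 and 28.4 CPM in the parental line (CPM are counts scaled to the TMM-corrected library total; DMSO then E2) and at 2.42 to 3.41 CPM in the 4 clone libraries, a log2 difference of -3.04 (SE 0.21, edgeR Benjamini-Hochberg adjusted p = 0.00868). Without the parental DMSO library that difference was -3.32 with an edgeR Benjamini-Hochberg adjusted p of 0.0846. The parental DMSO library had the lowest scaling factor (0.899, against 1.008 to 1.045 in the other 5). In the parental line the E2 ratio also went with GC content: the median log2 ratio was -0.29 in the quintile of genes with the lowest GC content and 0.37 in the quintile with the highest, against -0.04 and 0.10 in clone 1 and 0.04 and 0.00396 in clone 2. Of the 8 epithelial markers, all 8 passed the filter, and their summed level was 2759 to 2918 CPM in the DMSO libraries of the clones and 3096 CPM in that of the parental line, with 2147 CPM in each clone and 2367 CPM in the parental line under E2. The stromal markers summed to 49.1 to 87.4 CPM, most of it COL1A1, and DCN, LUM and PDGFRB had at most 3 counts in any library. For knockout against parental, 0 of the 5 tested stromal markers were called, and 3 had an unadjusted p under 0.05, against 11.4% of all genes. The median log2 difference of the 5 was -1.16. COL3A1 had 7.93 and 9.73 CPM in the parental line and 1.34 to 3.35 CPM in the clones (log2 -2.09, SE 0.38, edgeR Benjamini-Hochberg adjusted p = 0.117), COL1A2 differed by -1.58 (SE 0.57) on 3 to 27 counts and PDGFRA by -1.16 (SE 0.44) on 3 to 16 counts. COL1A1 differed by -0.20 (SE 0.25), and THY1 went the other way at 0.75 (SE 0.33) on 22 to 68 counts. The part of these markers in the knockout differences below was not tested. Endothelial and leukocyte markers summed to 1.65 to 4.55 and 3.19 to 5.50 CPM, with CD3E at 0 counts in every library. In such bulk samples, fewer cells expressing a gene and less RNA per cell cannot be told apart.

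The upstream sequences of 3 of the factors are shown because the results below turn on them. PAX8 and GATA2 had a higher E2 ratio in the parental line than in either clone. That difference was called only for GATA2, and only with the replicate block. FOXO1 was the only tested member whose 4 clone libraries all lay on 1 side of both parental libraries. Sequences are from RefSeq on GRCh38.p14, the build of that table and not the hg19 build named in the submitters' processing notes, and each is the 250 bases before a transcription start, read 5′ to 3′ on the gene's strand. Capitals mark GGTCA or its reverse complement TGACC, the half-site of the estrogen response element.
PAX8 (chr2:113278922-113279171, minus strand): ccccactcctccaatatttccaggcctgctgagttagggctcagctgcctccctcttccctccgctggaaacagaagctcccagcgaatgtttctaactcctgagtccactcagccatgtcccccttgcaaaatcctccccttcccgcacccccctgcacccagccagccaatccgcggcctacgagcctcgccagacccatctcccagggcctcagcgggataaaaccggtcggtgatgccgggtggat
GATA2, the farther upstream of 2 starts (chr3:128493202-128493451, minus strand): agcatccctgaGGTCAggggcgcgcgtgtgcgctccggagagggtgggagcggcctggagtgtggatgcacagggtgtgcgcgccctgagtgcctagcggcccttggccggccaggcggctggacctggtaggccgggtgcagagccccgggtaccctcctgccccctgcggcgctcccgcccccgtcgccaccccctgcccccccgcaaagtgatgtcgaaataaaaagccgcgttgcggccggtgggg
FOXO1 (chr13:40666642-40666891, minus strand): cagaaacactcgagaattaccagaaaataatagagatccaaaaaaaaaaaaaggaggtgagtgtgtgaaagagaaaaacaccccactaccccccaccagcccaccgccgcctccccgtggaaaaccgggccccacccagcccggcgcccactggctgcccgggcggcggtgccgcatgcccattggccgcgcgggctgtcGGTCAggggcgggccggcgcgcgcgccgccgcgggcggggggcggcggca
A half-site lay 239 bases before the GATA2 start and 50 bases before the FOXO1 start, and the PAX8 window held none. RefSeq windows were matched for 7 of the 10 members, 12 windows in all (FOXA1, FOXO1, PAX8, PAX2, EMX2, GATA2 and WT1). For 7 of the 12 windows, bases just after the start were found in a GENCODE transcript of the gene. None of the 12 windows (0) held CCGGAA, a form of the ETS site, on either strand, which 14.5% of all 35116 windows held. Other forms of the site were not searched. None of the 12 windows held the full element GGTCANNNTGACC, which 0.0399% of all windows held. The half-site GGTCA was in 3 of the 12 (the third was the most downstream WT1 start), against 32.6% of all windows. These are matches of letters and were not tested as binding sites.

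The members covered a wide span of levels. Per kilobase of the longest GENCODE transcript, an approximation since the lengths are not those of the authors' annotation, the mean level over the 6 libraries was 85.8 CPM per kb for PAX8, 53.7 for EMX2, 30.9 for SOX17 and 21.2 for SOX9. GATA2, FOXO1 and FOXA1 came next at 4.26, 4.03 and 3.93 CPM per kb, and WT1 was at 0.772. The library ranges of GATA2 (2.98 to 5.07), FOXO1 (3.0 to 4.83) and FOXA1 (3.56 to 4.71 CPM per kb) overlapped, as did those of SOX17 (22.0 to 42.5) and SOX9 (15.9 to 29.4). PAX8 at 66.8 to 109.2 and EMX2 at 48.8 to 62.5 CPM per kb did not overlap with each other.

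FOXA2 and PAX2 were not detectable. PAX2 had 0 counts in all 6 libraries, and FOXA2 had 1 count in clone 2 under E2 and 0 in the other 5. The limit that a count of 0 allows was 0.0802 to 0.103 CPM by library (3 counts, counting error only). LINC00261, the long noncoding RNA gene next to FOXA2, was also at 0 counts in every library. FOXA3, the third FOXA gene, had 1 to 7 counts per library and PAX5, of the same paired-box group as PAX2 and PAX8, at most 2. Of the 3 FOXA genes FOXA1 alone passed the filter, and of PAX2, PAX5 and PAX8 only PAX8 did.

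**Figure D1:**
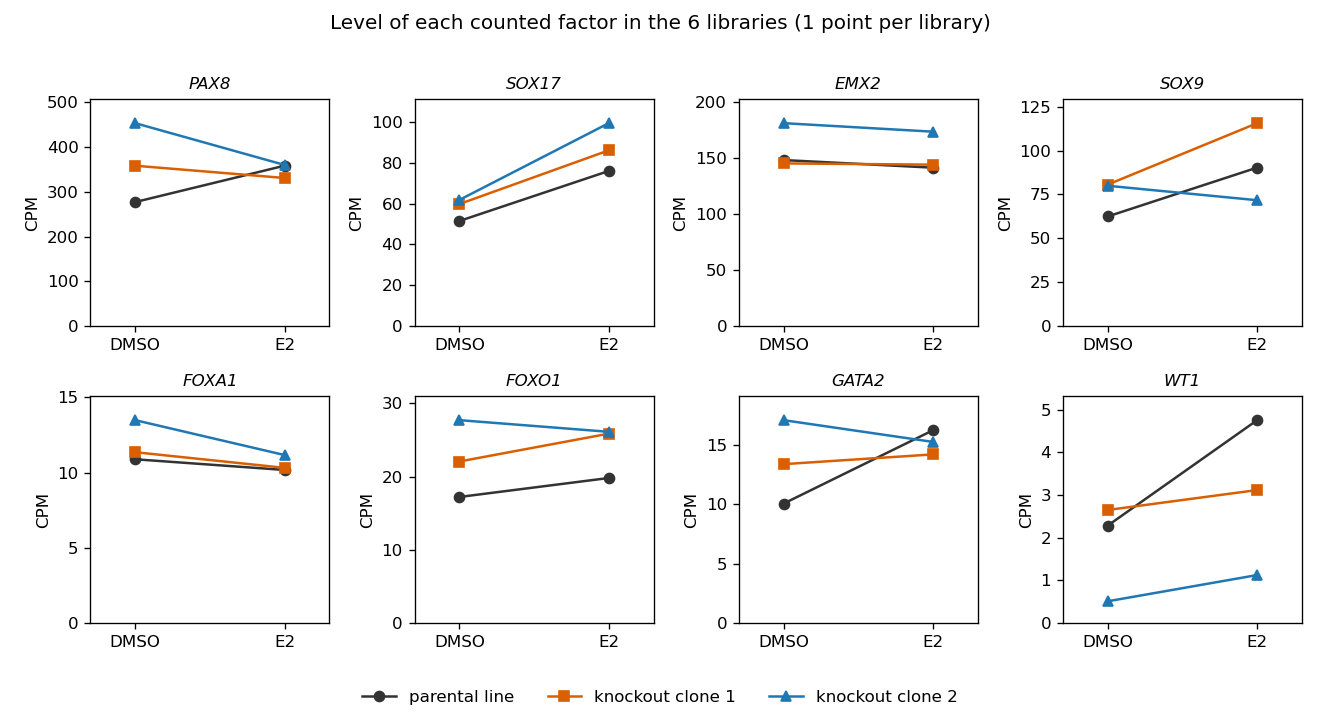
CPM (vertical axis, from 0) of the 8 members that passed the count filter, under DMSO and E2, with 1 point per library and a line joining the 2 libraries of each cell line. SOX17 is higher under E2 in each line, FOXO1 is above the parental line in both clones, and WT1 is lowest in clone 2.

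The first comparison asked which factors differed between the ETV4 knockout clones and the parental line. No member was called (0 of 8 under a Benjamini-Hochberg adjusted 0.05 by the quasi-likelihood test of edgeR), against 0.327% of all tested genes, and DESeq2 also called 0 of the 8, against 2.91% of all genes. One member, FOXO1, had an unadjusted p under 0.05 (1 of 8), against 11.4% of all genes. Of the 8 log2 differences 7 were above 0, and their median was 0.21 against 0.0133 over all genes; the 8 values share the same 2 parental libraries.

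FOXO1, the forkhead factor of decidualization, stood at 17.2 and 19.8 CPM in the parental line (DMSO then E2), at 22.0 and 25.9 CPM in clone 1 and at 27.7 and 26.1 CPM in clone 2. Every clone library thus lay above both parental libraries; 1 of the 8 members had such a separation, as had 16.4% of all genes. The log2 difference was 0.46 (SE 0.15, 95% interval 0.11 to 0.81, edgeR Benjamini-Hochberg adjusted p = 0.337). The clones were at 145% of the parental FOXO1 level in DMSO and at 131% in E2. Its paralog FOXO3, which shares FOXO1's DNA-binding domain and its control by AKT, had a larger gap, from 17.9 and 26.9 CPM in the parental line to 36.2 to 44.9 CPM in the clones. FOXO3 differed by 0.89 (SE 0.18) on the log2 scale and did not pass either (edgeR Benjamini-Hochberg adjusted p = 0.155).

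PAX8, the paired-box factor, had 277 CPM in the parental line in DMSO, against 358 CPM in clone 1 and 454 CPM in clone 2. Under E2 the 3 lines were close, at 358, 331 and 360 CPM. The clones averaged 406 ± 67.2 CPM (SD, n = 2) in DMSO and 346 ± 20.6 CPM (SD, n = 2) in E2, or 146% and 96.4% of the parental level. GATA2, the zinc-finger partner of the progesterone receptor, also had its lowest level in the parental DMSO library. GATA2 had 10.1 CPM there, below 13.4 and 17.1 CPM in clones 1 and 2 in DMSO. In the parental E2 library GATA2 had 16.2 CPM, above 14.2 and 15.2 CPM in clones 1 and 2 under E2. The fitted log2 differences were 0.24 (SE 0.19) for PAX8 and 0.21 (SE 0.22) for GATA2. Without the parental DMSO library they turned to -0.06 for PAX8 and -0.15 for GATA2. None of these differences was called, and why their sign turned was not tested.

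None of SOX17, EMX2, SOX9 and FOXA1 was called between genotypes. SOX17, an endoderm and uterine epithelial factor, was at 118% of the parental level in the clones in DMSO and at 122% in E2, with a log2 difference of 0.26 (SE 0.12, 95% interval -0.02 to 0.55). EMX2, a homeobox factor needed for the urogenital tract, was at 110% and 112%, with a log2 difference of 0.15 (SE 0.15). SOX9 was at 128.5% and 104%, with 0.20 (SE 0.21), and FOXA1 at 114% and 105.5%, with 0.13 (SE 0.16). The upper ends of the 95% intervals of these 4 genes lay at 0.55, 0.52, 0.69 and 0.51 on the log2 scale, and the lower ends at -0.02, -0.21, -0.28 and -0.25. These intervals do not show that the levels were alike, though they hold no 2-fold difference in either direction. They treat the libraries of a line as independent. The spread they rest on includes the difference between the 2 clones, but none between parental lines, as only 1 was used.

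WT1, a zinc-finger factor of the urogenital ridge and a low gene here, varied more between the clones than between genotypes. It had 68 and 178 counts in the parental line (DMSO then E2), 95 and 91 in clone 1, and 15 and 33 in clone 2. As levels these were 2.29 and 4.76 CPM, 2.65 and 3.12 CPM, and 0.512 and 1.13 CPM, so that both clone 2 libraries lay below the other 4. The log2 difference between genotypes was -0.86 (SE 0.63), with a 95% interval from -2.36 to 0.65. When clone 1 was left out it was -2.11 with an edgeR Benjamini-Hochberg adjusted p of 5.26e-05, in a fit that called 624 genes, or 4% of all. When clone 2 was left out it was -0.22 and not called, while 6.36% of all genes were.

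**Figure D2:**
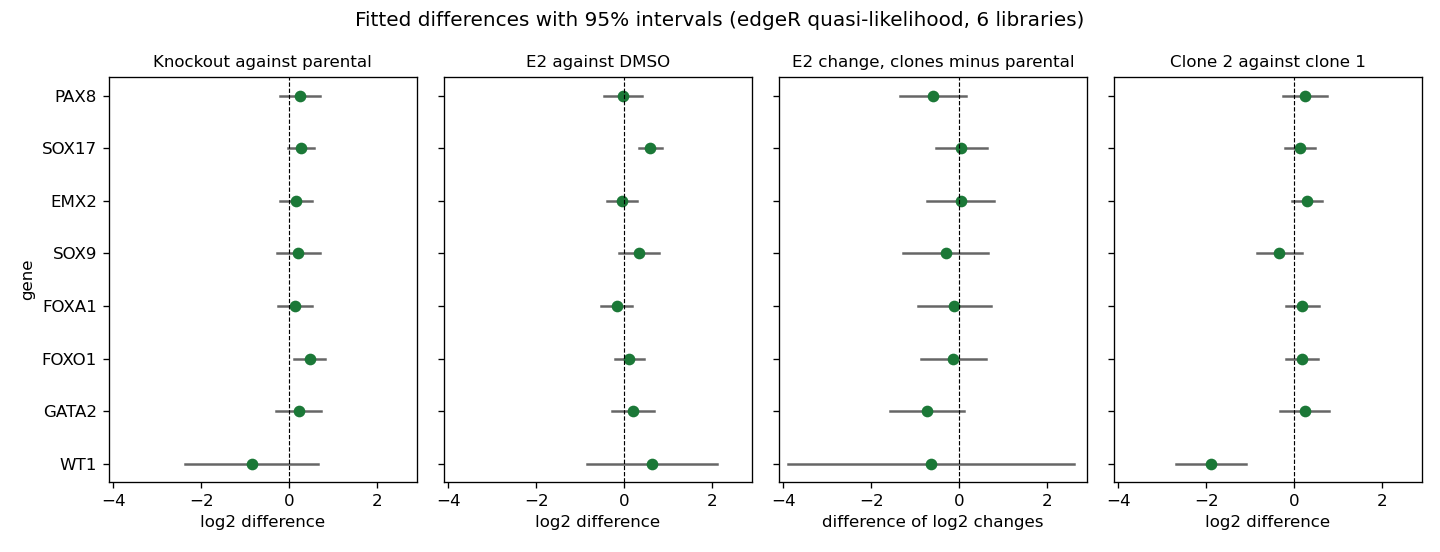
Fitted log2 differences (points) with 95% intervals (bars) of the 8 tested members in the 4 comparisons, from edgeR models of the 6 libraries; the third panel shows the difference between 2 log2 changes. The intervals that leave out 0 are those of FOXO1 in the first panel, SOX17 in the second and WT1 in the fourth, and none of these had an adjusted p below 0.05.

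The next comparison asked which factors responded to E2 over the 3 lines. Again 0 of the 8 members were called by the edgeR test, Benjamini-Hochberg adjusted, against 1.13% of all genes, with 1 of 8 at an unadjusted p under 0.05 against 20.4% of all genes. The libraries pair by cell line, and with line as a replicate block the count was 0 of 8 against 2.46% of all genes. DESeq2's Wald test called 1 member, SOX17, while calling 7.14% of all genes.

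SOX17 was higher under E2 in each of the 3 lines. It went from 51.5 to 76.0 CPM in the parental line, from 59.8 to 86.1 CPM in clone 1 and from 61.8 to 99.4 CPM in clone 2, ratios of 1.48, 1.44 and 1.61. The 3 E2 libraries lay above the 3 DMSO libraries; SOX17 was the only 1 of the 8 members without overlap between treatments, which 24.2% of all genes also showed. The log2 difference was 0.59 (SE 0.11, 95% interval 0.32 to 0.86), with an edgeR Benjamini-Hochberg adjusted p of 0.0766, and 0.59 with p adjusted to 0.0577 in edgeR with the replicate block. DESeq2 gave 0.59 with a Benjamini-Hochberg adjusted p of 0.00156. The GC content of its longest transcript, 58.3%, lies just under the highest quintile of genes (from 58.4%); with each library's trend on GC content removed, an alternative chosen after seeing the data, the log2 difference was 0.49 (edgeR Benjamini-Hochberg adjusted p = 0.0920).

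The SOX9 level split by line. It stood at 62.5 and 90.3 CPM in the parental line (DMSO then E2) and at 80.6 and 116 CPM in clone 1, but at 79.9 and 71.7 CPM in clone 2. The E2 log2 ratios were therefore 0.53, 0.52 and -0.16, and the fitted difference was 0.33 (SE 0.19, edgeR Benjamini-Hochberg adjusted p = 0.363). With clone 2 left out, the fitted difference was 0.53 for SOX9 and 0.54 for SOX17. That fit held 1 library per genotype and treatment, so no call is given from it.

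WT1 had E2 log2 ratios of 1.04 (parental), 0.23 (clone 1) and 1.05 (clone 2), above 0 in each line but on few counts. Its fitted difference was 0.63 (SE 0.62) without the replicate block and 0.75 (SE 0.25, edgeR Benjamini-Hochberg adjusted p = 0.143) with it. SOX17 and WT1 were the 2 members with ratios above 0 in all 3 lines, as were 27.8% of all genes. EMX2 and FOXA1 were the 2 members below 0 in all 3 lines, as were 25.1% of all genes, and the sizes were small. FOXA1 went from 10.9 to 10.2 CPM in the parental line, from 11.4 to 10.3 CPM in clone 1 and from 13.5 to 11.2 CPM in clone 2, a log2 difference of -0.17 (SE 0.15). EMX2 stayed between 141 and 148 CPM in the parental line and clone 1 and between 173 and 181 CPM in clone 2, a log2 difference of -0.05 (SE 0.14, 95% interval -0.39 to 0.29). FOXO1 differed by 0.11 (SE 0.14).

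**Figure D3:**
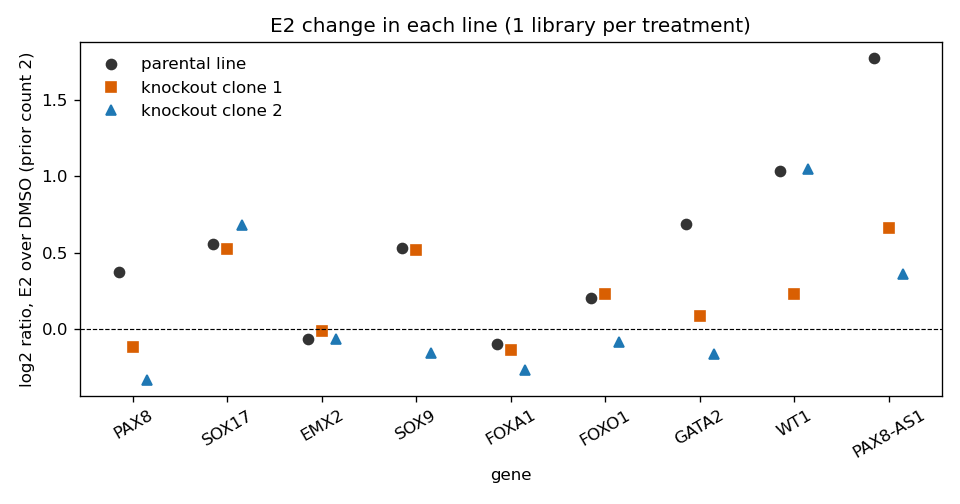
Log2 ratio of E2 over DMSO (vertical axis, prior count 2) in the parental line and the 2 knockout clones for the 8 tested members and PAX8-AS1, with 1 point per line. PAX8 lies above 0 in the parental line (0.37) and below 0 in clones 1 and 2 (-0.12 and -0.33), while the 3 SOX17 points lie between 0.53 and 0.69.

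Whether the E2 change differed between the clones and the parental line was then tested as an interaction. Without the replicate block, the edgeR test, Benjamini-Hochberg adjusted, called 0 of the 8 members and 0% of all genes, with 0 of 8 and 7.62% at an unadjusted p under 0.05. DESeq2 also called 0 of the 8, and 0.186% of all genes. With line as a replicate block, a fit with 1 residual degree of freedom, 1 of the 8 members was called against 15.8% of all genes, a share of the members close to the background. In that fit edgeR gave no weight to each gene's own residual spread (prior degrees of freedom Inf). Its p-values therefore rest on a spread fitted over genes.

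The member called with the block was GATA2. Parental cells gave it an E2 log2 ratio of 0.69, clone 1 gave 0.09 and clone 2 gave -0.16. The difference of these changes, clones minus parental, was -0.73 (SE 0.25, edgeR Benjamini-Hochberg adjusted p = 0.0258) with the block and -0.74 (SE 0.35, edgeR Benjamini-Hochberg adjusted p = 0.617) without it. The longest GATA2 transcript has 59.7% GC and falls in the highest quintile, where the median gene had a parental E2 log2 ratio of 0.37. After the GC correction with the replicate block the difference was -0.47 and GATA2 was no longer called (edgeR Benjamini-Hochberg adjusted p = 0.194), in a fit that called 12.6% of all genes.

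PAX8 was the only member whose ratio was above 0 in the parental line and below 0 in both clones, a layout shared by 6.57% of all genes. Parental cells gave PAX8 an E2 log2 ratio of 0.37, clone 1 gave -0.12 and clone 2 gave -0.33. The interaction was -0.60 (SE 0.31, edgeR Benjamini-Hochberg adjusted p = 0.617) without the block and -0.59 (SE 0.26, edgeR Benjamini-Hochberg adjusted p = 0.0985) with it, and -0.40 after the GC correction with the replicate block (57.0% GC). For SOX17 the interaction was 0.05 (SE 0.24, 95% interval -0.54 to 0.63). The other 5 values ran from -0.65 (SE 1.34) for WT1 to 0.03 (SE 0.31) for EMX2.

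The 2 knockout clones were compared with each other to see how far the factors varied between lines that share the knockout. No member was called (0 of 8, against 0.871% of all genes) by the edgeR test, Benjamini-Hochberg adjusted, and 1 of 8 had an unadjusted p under 0.05 against 12.1% of all genes. That gene was WT1, lower in clone 2 than in clone 1 by a log2 difference of -2.24 in DMSO and -1.42 in E2. The fitted WT1 difference was -1.89 (SE 0.33, 95% interval -2.69 to -1.09, edgeR Benjamini-Hochberg adjusted p = 0.0842). DESeq2 called WT1 at -1.91 (Benjamini-Hochberg adjusted p = 0.00209) while calling 2.36% of all genes. The other 7 members ran from -0.34 (SE 0.21) for SOX9 to 0.29 (SE 0.14) for EMX2.

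Of 6 noncoding genes listed as neighbours or antisense partners of members, 4 passed the filter and 0 were called in any of the 4 edgeR fits without a block (Benjamini-Hochberg adjusted). For knockout, E2, interaction and clones, 3, 1, 1 and 1 had an unadjusted p under 0.05, against 11.4%, 20.4%, 7.62% and 12.1% of all genes. PAX8-AS1, at the PAX8 locus, spanned a wider range than PAX8. It stood at 9.04 and 31.1 CPM in the parental line (DMSO then E2), at 23.4 and 37.2 CPM in clone 1 and at 37.5 and 48.2 CPM in clone 2. The parental DMSO library was the lowest of the 6, as it was for PAX8. The PAX8-AS1 interaction was -1.29 (SE 0.46, edgeR Benjamini-Hochberg adjusted p = 0.617) without the block. With the block, in the fit that uses a spread fitted over genes, it was -1.27 (SE 0.23, edgeR Benjamini-Hochberg adjusted p = 5.50e-06). After the GC correction with the replicate block the value was -1.31 and was still called.

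GATA2-AS1 and EMX2OS had other layouts than their partners. GATA2-AS1 was at 9.48 and 7.43 CPM in the parental line and at 11.6 to 14.2 CPM in the clones, lower under E2 in each line, with a knockout log2 difference of 0.64 (SE 0.15, edgeR Benjamini-Hochberg adjusted p = 0.208). EMX2OS was at 10.6 and 12.8 CPM in the parental line, 8.23 and 7.58 CPM in clone 1 and 4.82 and 5.26 CPM in clone 2, a log2 difference of -0.85 (SE 0.27, edgeR Benjamini-Hochberg adjusted p = 0.321). EMX2 itself was highest in clone 2, where EMX2OS was lowest. SOX9-AS1 had 11 to 25 counts per library and WT1-AS 1 to 5. The use of strand in counting is not given in the sources used here, so reads of a factor and its antisense partner may not be fully separated.

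**Figure D4:**
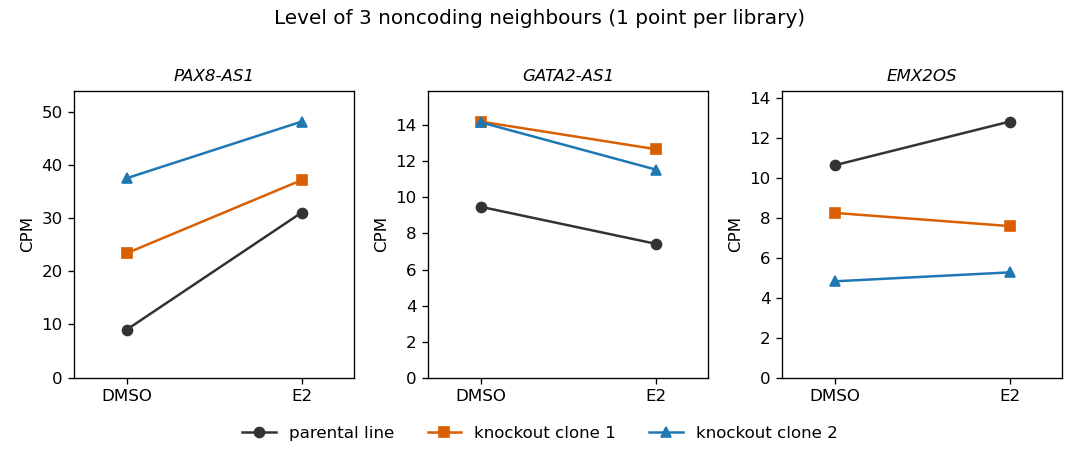
CPM (vertical axis, from 0) of PAX8-AS1, GATA2-AS1 and EMX2OS under DMSO and E2, with 1 point per library and a line joining the libraries of each cell line. PAX8-AS1 is lowest in the parental DMSO library (9.04 CPM), and EMX2OS is higher in the parental line than in either clone.

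Wider lists of the same biology were read in the same fits. Of 15 paralogs of the members, 8 passed the filter and 0 were called in the 4 edgeR fits without a block. For knockout, E2, interaction and clones, 1, 2, 0 and 1 had an unadjusted p under 0.05, against 11.4%, 20.4%, 7.62% and 12.1% of all genes. Their median E2 log2 difference was 0.45 against -0.0175 over all genes, and their median knockout difference was 0.44 against 0.0133. GATA5, a paralog of GATA2, had 3 and 12 counts in the parental line (DMSO then E2), 2 and 29 in clone 1 and 8 and 82 in clone 2. GATA5 passed for E2 with the replicate block at a log2 difference of 3.18 (SE 0.46, edgeR Benjamini-Hochberg adjusted p = 0.0297), in a fit that called 2.46% of all genes. Without the block it did not pass (3.11, edgeR Benjamini-Hochberg adjusted p = 0.119). GATA1, GATA3 and GATA4 had at most 3 counts in any library, so GATA2 was the most counted of the 6 GATA genes.

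Of 20 other uterine and Müllerian regulators, 15 passed the filter. In the edgeR fits without a block, 0 were called for E2, interaction and clones. For knockout, E2, interaction and clones, 3, 2, 0 and 3 had an unadjusted p under 0.05, against 11.4%, 20.4%, 7.62% and 12.1% of all genes. In the knockout comparison 1 fell and 0 rose, against 0.327% of all genes called. The gene that fell was ID2, an inhibitor of basic helix-loop-helix factors, at 18.9 and 12.6 CPM in the parental line and 5.48 to 6.70 CPM in the clones (log2 -1.40, SE 0.18, edgeR Benjamini-Hochberg adjusted p = 0.0483). The call on ID2 was lost with the random replicate block in limma-voom (limma Benjamini-Hochberg adjusted p = 0.0589) and without the parental DMSO library (-1.16, edgeR Benjamini-Hochberg adjusted p = 0.558). With the replicate block 1 of the 15 was called for the interaction, against 15.8% of all genes. It was ARID1A, a chromatin remodelling subunit (-0.71, SE 0.25, edgeR Benjamini-Hochberg adjusted p = 0.0339). Without the block ARID1A had -0.72 (edgeR Benjamini-Hochberg adjusted p = 0.617), and its level was lowest in the parental DMSO library, at 89.8 CPM against 116 to 164 CPM elsewhere. MSX1, the homeobox factor of uterine receptivity, was high and even at 479 to 585 CPM, while MSX2, LHX1, TBX3 and TCF21 had at most 3 counts in any library.

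Of 21 genes often described downstream of the members, 14 passed the filter. None (0) was called for knockout, interaction or clones in the edgeR fits without a block. For knockout, E2, interaction and clones, 4, 3, 0 and 2 had an unadjusted p under 0.05, against 11.4%, 20.4%, 7.62% and 12.1% of all genes. For E2 1 gene was called, against 1.13% of all genes. That gene was TXNIP, a FOXO-regulated inhibitor of thioredoxin and glucose uptake, which fell from 138 to 65.4 CPM in the parental line, from 146 to 87.4 CPM in clone 1 and from 170 to 88.1 CPM in clone 2. Its log2 difference was -0.92 (SE 0.12, edgeR Benjamini-Hochberg adjusted p = 0.0262), and without the parental DMSO library it was -0.86 with an edgeR Benjamini-Hochberg adjusted p of 0.119. CCNG2, another FOXO target, had a log2 difference of -0.80 (SE 0.16, edgeR Benjamini-Hochberg adjusted p = 0.0772) and was not called. From the same list, CDKN1B had -0.28 (SE 0.12), IRS2 -0.15 (SE 0.26), SESN1 -0.09 (SE 0.16) and KLF15 0.27 (SE 0.22). Of the 14 tested genes, 7 had an E2 log2 difference above 0. The Hedgehog ligand gene IHH, which acts after the progesterone receptor and GATA2 in the uterus, had at most 2 counts per library, and the decidual genes PRL and IGFBP1 had 0 and at most 6.

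Likeness between genes was described for the 2 members with the widest range of log2 CPM. Over the 6 libraries and 12366 other genes averaging 2 CPM or more, SOX17 was most like LTN1 (Pearson r 0.999), LFNG (0.991) and PHF20L1 (0.989), and 371 genes had an r above 0.9. LFNG, a glycosyltransferase that acts on Notch receptors, stood at 18.3, 29.5 and 34.05 CPM in DMSO and 49.5, 65.1 and 83.7 CPM under E2 (parental, clone 1, clone 2). WT1 was most like NUS1 (0.989), WDR74 (0.988) and BAG1 (0.986), with 153 genes above 0.9. The 6 points share lines and treatments, so these are descriptions with no test.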

How the data were processed

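Poly(A)-selected RNA of 6 Ishikawa libraries was sequenced after a stranded kit, per the labels' protocols. The authors deposited whole-number raw counts per gene symbol, and the submitters' processing notes name HISAT2, SAMtools, Subread, DESeq2 and hg19; versions, annotation and strand setting are not given in the sources used here. A second deposited table, of normalized values, was not used. Column names DMOS and ER were read as DMSO and E2.

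The tests were run with edgeR 4.0.16 under R 4.3.3: filterByExpr on the 4 groups (15611 of 26364 genes kept), TMM scaling, glmQLFit and glmQLFTest, Benjamini-Hochberg adjustment over all tested genes, calls below 0.05. Knockout and E2 effects came from 1 model with both terms, the interaction from a model with their product, and the clone comparison from a model of line and treatment. SE is the log2 value divided by the root of F, and 95% intervals use edgeR's total degrees of freedom. Single-library log2 ratios used a prior count of 2. The p-values treat libraries of a line as independent and measure the spread between these libraries. The models were tested on simulated data.

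Libraries pair by line: across tested genes the clone 2 to clone 1 difference under DMSO and under E2 had a Pearson r of 0.626. Alternatives were DESeq2 1.42.0, limma 3.58.1 with line as a random block, other scaling and filters, the replicate block, lines left out, and, chosen after seeing the data, a GC correction (lowess on GC content of the longest GENCODE v29 transcript, known for 93.6% of tested genes) and leaving out the parental DMSO library. Every tested member is named, with ETV4; from each list, called genes come first and then paralogs or neighbours of a member. Members and lists were chosen with earlier results of these data known. Genes named outside that rule were chosen after their values were seen.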

Additional observations from a re-analysis of the deposited data

Results flagged for a closer look

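PAX8 had an E2 log2 ratio of 0.37 in the parental line and ratios below 0 in both clones (-0.12 and -0.33); it is listed because the lines moved in opposite directions. The interaction test of this difference gave an edgeR Benjamini-Hochberg adjusted p of 0.617 without the replicate block and 0.0985 with it. GATA2 differed in its E2 change between clones and parental line by -0.73 in edgeR with the replicate block (Benjamini-Hochberg adjusted p = 0.0258), and PAX8-AS1 by -1.27 (edgeR Benjamini-Hochberg adjusted p = 5.50e-06), in a fit that called 15.8% of all genes. That fit judged every gene on a spread fitted over genes, not on the gene's own. Without the block GATA2 and PAX8-AS1 both had an edgeR Benjamini-Hochberg adjusted p of 0.617. With the GC correction and the replicate block GATA2 was not called (edgeR Benjamini-Hochberg adjusted p = 0.194) and PAX8-AS1 was (6.35e-07). All 3 genes were lowest in the parental DMSO library, at 277, 10.1 and 9.04 CPM. Its part in these differences was not tested, since the interaction rests on that library.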

How the results depend on the processing

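With no call among the 8 members in the 4 edgeR comparisons, alternatives could add calls but not remove them. Fits without clone 1 or clone 2 held 1 library per genotype and treatment, so no member's call is given from them. The number of members called became 1 for E2 in DESeq2 (SOX17) and stayed 0 for E2 without the parental line. It became 1 for the interaction with the replicate block (GATA2). For the clones it became 1 in DESeq2, with no filter on low counts and without the parental line (WT1 each time). Pairing by the replicate block changed no other member's call. Counts over all genes moved far more. The 51 knockout genes became 454 in DESeq2 and ran from 2 (without the parental DMSO library) to 993 (without clone 2) when libraries were left out. The 176 E2 genes became 1115 in DESeq2, 384 with the replicate block and 614 with the GC correction and the replicate block, and ran from 51 without the parental line to 3348 without clone 2. The 0 interaction genes became 29 in DESeq2, 2470 with the replicate block and 1963 with the GC correction and the replicate block. The 136 clone genes became 369 in DESeq2, 236 with no filter and 2718 without the parental line. Directions reversed for 3 members, none of them called: in the knockout comparison EMX2 ran from -0.00134 without clone 2 to 0.29 without clone 1, PAX8 from -0.0643 without the parental DMSO library to 0.36 without clone 1, and GATA2 from -0.15 to 0.33 likewise. For E2, PAX8 ran from -0.25 without the parental DMSO library to 0.13 without clone 2, and GATA2 from -0.0637 without the parental DMSO library to 0.39 without clone 2. The cause was not tested. Prior counts of 0.5 and 5 left the single-line ratios within counting error in all 48 checks. Depth left PAX2 and FOXA2 untested, and WT1 rests on 15 to 178 counts per library. The interaction without a clone left no residual degrees of freedom and was not run.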
